A study of Homo sapiens with 24 samples.

Results

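The data are the mRNA levels of 10 BCL2 family genes in U87-T cells lacking DAXX or ATRX, measured with and without etoposide. The genes were taken by name from a count table of 57736 Ensembl genes and comprised the BH3-only genes BBC3, PMAIP1, BCL2L11, BID and BIK, the effectors BAX and BAK1, and the anti-apoptotic genes BCL2, BCL2L1 and MCL1. All 10 were found, each under 1 gene ID. U87 is a human glioblastoma cell line, and U87-T cells carry an added TERT transgene. DAXX_KO and ATRX_KO cells are CRISPR/Cas9 knockouts of U87-T, and each is 1 single-cell clone that was selected for features of alternative lengthening of telomeres. Each knockout was sequenced beside WT cells of its own (U87-T with a Cas9 vector that carries no guide against DAXX or ATRX), and these sets are called the DAXX and ATRX series. Each series holds WT control, WT etoposide, KO control and KO etoposide cells, with 3 libraries a group and 24 libraries in all. Etoposide poisons topoisomerase II and causes DNA double-strand breaks, and its dose and duration are not stated for these libraries. Because each knockout is 1 clone, the loss of the gene and the history of the clone cannot be told apart.

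The BCL2 family controls the permeability of the outer mitochondrial membrane. BAX and BAK1 encode the effectors that form pores and release cytochrome c, which leads to caspase activation. BCL2, BCL2L1 (BCL-xL) and MCL1 encode proteins that hold the effectors in check. The BH3-only proteins bind the anti-apoptotic members or activate the effectors directly, and among them PUMA (BBC3) and NOXA (PMAIP1) are classical transcriptional targets of p53, which DNA damage stabilises. BIM (BCL2L11) is best known as a target of FOXO factors, and BID is activated mainly by proteolytic cleavage, a step that mRNA levels do not show.

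The sequence around the start of each gene was scanned for the p53 response element, which is made of a pair of decamers. The scan was chosen after the responses to etoposide were known, and the members with the fewest mismatches, BBC3, BAK1, PMAIP1 and BAX, are shown. All 4 rose with etoposide, as did BCL2L11 and MCL1, whose best matches had more mismatches. On GRCh37, within 1000 bases on either side of the annotated gene start, these 4 members held a run of 20 bases that fitted a pair of joined p53 consensus decamers at all but 2 positions. Each is written 5′ to 3′ on the strand of the gene, with capitals for bases that fit the consensus.
BBC3, chr19:47735825-47735844, minus strand, first base 179 bases inside the gene, in a coding exon: GGGtcTGCCCAGGCATGTCC
PMAIP1, chr18:57566781-57566800, plus strand, first base at position −447 from the gene start: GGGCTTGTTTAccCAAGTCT
BAX, chr19:49458470-49458489, plus strand, first base 398 bases inside the gene, in a noncoding exon: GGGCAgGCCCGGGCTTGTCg
BAK1, chr6:33547680-33547699, minus strand, first base 371 bases inside the gene, in an intron: AGGCTTcCCTGGGCAgGTCT

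Of 16071 genes scanned in the same way, 4.39% held a match with at most 2 mismatches. The best matches of BCL2L11, BID, BIK and BCL2L1 had 3 mismatches, a level reached by 31.4% of the genes, and those of BCL2 and MCL1 had 4, reached by 89.0%. The consensus is its own reverse complement, so both strands were covered. In the RefSeq promoter windows of GRCh38.p14, which run from 250 bases before to 50 after a start, 8 of the members had at least 1 window and 13 windows in all. A full decamer stood in 1 of the 13, that of BAK1, with its first base 73 bases before the start, against 6.63% of all 35116 windows. A match of this kind is a description of the sequence and not a site of binding.

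Library totals ranged from 6928950 to 13298557 counts, and values are given as CPM, counts scaled to library size with edgeR's TMM factors. The reads come from transcript 3′ ends and were counted per gene, so CPM was compared between libraries and not between genes. DAXX mRNA was 33.9 ± 1.24 CPM (SD, n = 3) in WT control cells and 5.83 ± 1.06 in DAXX_KO control cells. With etoposide the difference was smaller, with 21.7 ± 0.94 CPM in WT and 9.86 ± 2.21 in DAXX_KO. ATRX mRNA was 192 ± 4.63 CPM in WT control cells and 80.6 ± 6.08 in ATRX_KO control cells. With etoposide it was 175 ± 5.22 CPM in WT and 70.1 ± 9.57 in ATRX_KO. Reads at the 3′ end can lie outside the edited exon, so the remaining counts say nothing of the protein. Of the markers of the glioma line, VIM, CD44, NES and FN1 were present in every library. GFAP had at most 6 counts in a library, SOX10 at most 3 and S100B 0 counts in all libraries. OLIG2 had at most 17 counts and SOX2 at most 59, and both were absent from some libraries. Of the markers of other cell types, epithelial KRT8 had 3.73 to 29.8 CPM. Neuronal SNAP25 had 2.55 to 20.5 CPM and SYT1 10.1 to 36.3 CPM. The others that were found reached at most 7.70 CPM, that of KRT18. TMM moved the median log2 change of all genes relative to scaling by library totals alone. With library totals, the median was 0.18 higher for DAXX_KO against WT in control, 0.11 lower for etoposide in DAXX_KO, 0.11 lower for the difference of the DAXX_KO and WT responses, and 0.12 higher and 0.13 lower for the DAXX_KO minus ATRX_KO differences of knockout effect and of response. The shares of higher calls among all calls then became 66.2% in place of 50.1% for DAXX_KO in control, 36.9% in place of 59.1% for its interaction with etoposide, 60.2% in place of 50.1% for ATRX_KO with etoposide, 62.7% in place of 49.7% for the difference of the knockout effects and 34.7% in place of 64.0% for that of the responses. Changes are given relative to the TMM scale, where all medians lay between −0.01 and 0.07.

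BIK was not measurably expressed. It had 9 counts in the 24 libraries together and at most 3 in any library, and it was removed by the filter on low counts in both series. A floor of 3 counts corresponded to 0.217 to 0.405 CPM per library. The other 9 members were tested, among 15247 genes for the DAXX series and 16371 for the ATRX series, each at an FDR of 5% over all genes (edgeR quasi-likelihood test, Benjamini-Hochberg adjustment). The counts behind a value were fewest for BCL2, with 2 to 68 a library, and for BCL2L11, with 26 to 115, and most for MCL1, with 1209 to 4924. In bulk RNA, more mRNA per cell and more cells that express a gene cannot be told apart.

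**Figure D1:**
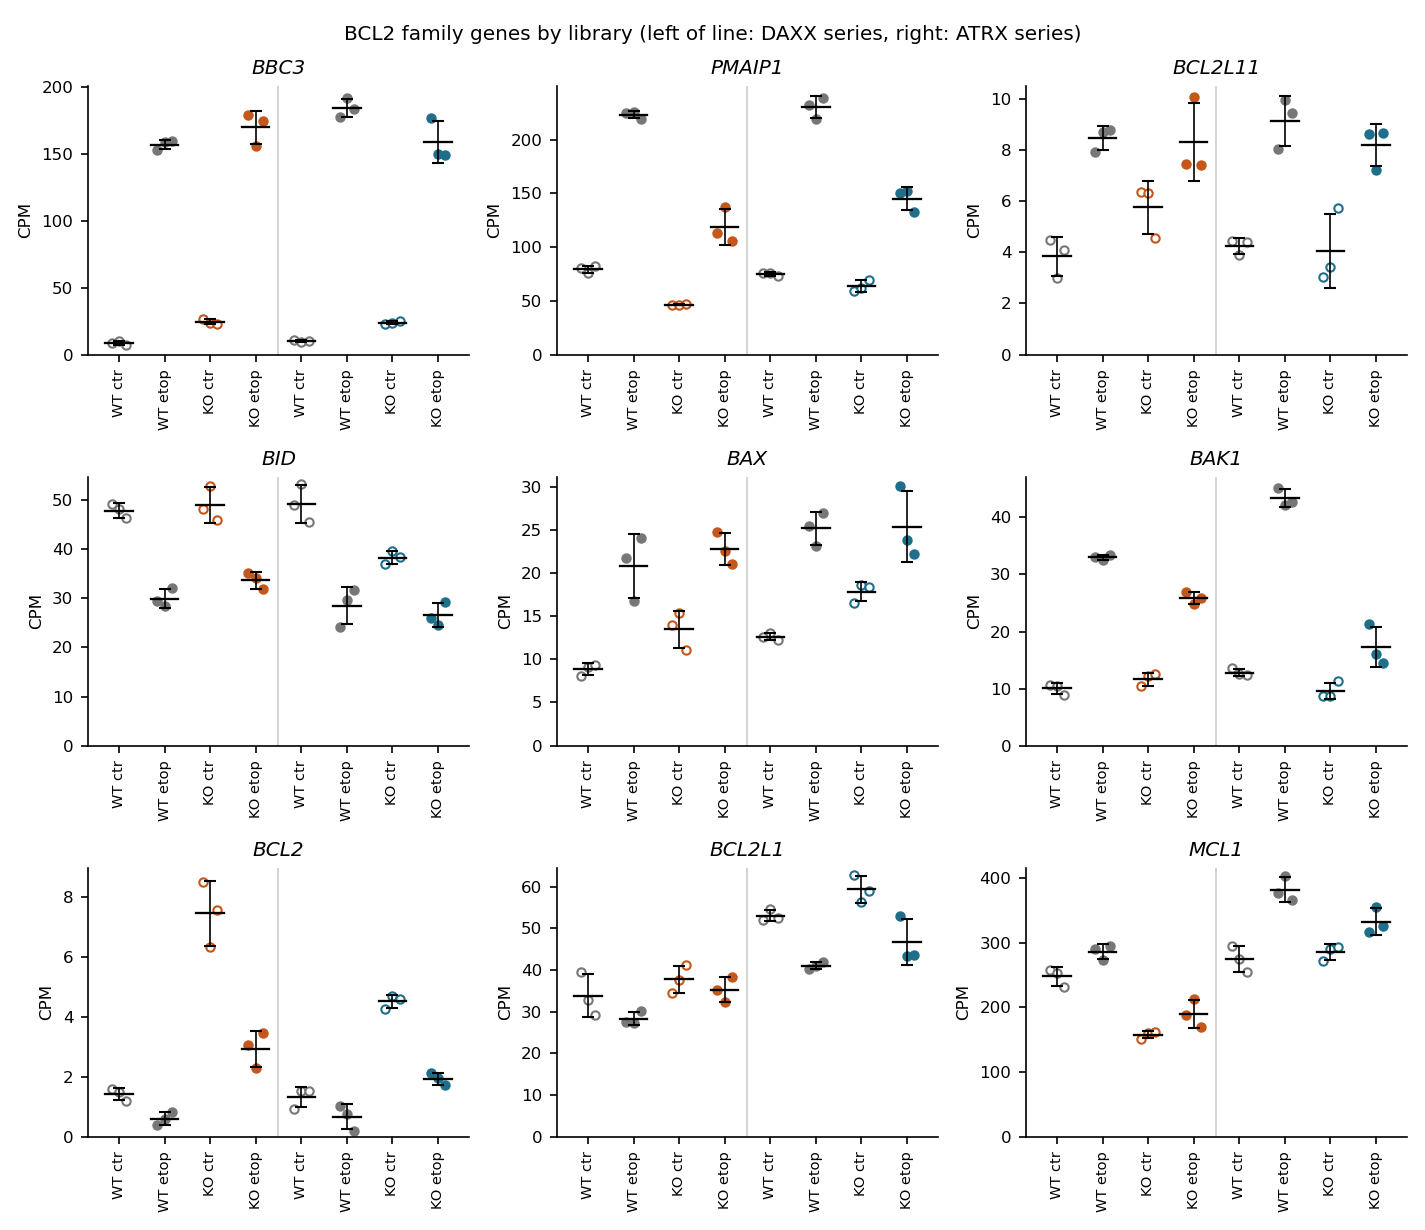
CPM of 9 members in each library (points), with the mean (horizontal line) and SD (bar) of the 3 libraries of a group. Grey marks WT, orange DAXX_KO and blue ATRX_KO, open points control and filled points etoposide. BBC3 lies between 7.45 and 11.2 CPM in all 6 WT control libraries and between 149 and 191 CPM in all 12 etoposide libraries.

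The first comparison asked how WT cells respond to DNA damage. In WT cells, etoposide raised the BH3-only genes BBC3, PMAIP1 and BCL2L11 and the effectors BAX and BAK1 in both series, together with MCL1, and lowered BID. In the DAXX series 6 of the 9 tested members rose, against 29.6% of all genes, and 2 fell, against 30.6%. In the ATRX series 6 rose, against 31.7%, and 2 fell, against 29.8%. The median log2 change of the members was 1.13 in the DAXX series, where that of all genes was 0.02, and 0.99 in the ATRX series, where that of all genes was 0.07.

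BBC3 encodes PUMA, which binds every anti-apoptotic member. In the DAXX series it had 8.92, 10.1 and 7.45 CPM in the WT control libraries and 153, 159 and 159 CPM with etoposide. In the ATRX series it had 11.2, 9.76 and 10.4 CPM in control and 178, 191 and 184 CPM with etoposide. All treated libraries lay far above all control libraries. The log2 change was 4.15 (SE 0.10, adjusted p = 6.25e-17) in the DAXX series and 4.14 (SE 0.10, adjusted p = 3.75e-15) in the ATRX series, which is 17.7-fold and 17.6-fold.

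PMAIP1 encodes NOXA, which binds mainly MCL1. It rose from 80.2, 75.9 and 82.0 CPM to 225, 225 and 219 CPM in WT cells of the DAXX series, a log2 change of 1.49 (SE 0.08, adjusted p = 6.90e-12). In WT cells of the ATRX series it rose from 76.3, 75.5 and 73.1 CPM to 233, 219 and 239 CPM, a log2 change of 1.62 (SE 0.08, adjusted p = 3.07e-11). The groups did not overlap in either series. BCL2L11, which encodes BIM, rose by 1.13 (SE 0.21) and 1.102 (SE 0.21) on the log2 scale, from 2.99 to 4.46 CPM in the 6 control libraries to 7.91 to 9.94 CPM in the 6 treated ones. The gene overlaps MIR4435-2HG on the other strand, which holds 30029 counts in all libraries against 1567 for BCL2L11, and the strand setting of the counting is not given in the sources used here. BID, the BH3-only gene cleaved by caspase-8, fell by 0.68 (SE 0.09, adjusted p = 1.36e-06) and by 0.79 (SE 0.11, adjusted p = 5.52e-06). Its 6 WT control libraries lay between 45.5 and 53.2 CPM and its 6 treated ones between 24.2 and 32.0 CPM.

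Of the effectors, BAK1 had the larger estimates. BAK1 had 10.7, 10.5 and 8.89 CPM in WT control libraries of the DAXX series and 33.0, 32.6 and 33.4 CPM with etoposide. In the ATRX series it had 13.5, 12.5 and 12.4 CPM in control and 45.2, 42.2 and 42.8 CPM with etoposide. The log2 changes of BAK1 were 1.71 (SE 0.11, adjusted p = 9.00e-11) and 1.76 (SE 0.14, adjusted p = 6.36e-09). BAX rose from 8.03, 9.09 and 9.37 CPM to 21.7, 16.8 and 24.04 CPM in the DAXX series and from 12.6, 13.1 and 12.2 CPM to 25.4, 23.1 and 26.9 CPM in the ATRX series. Its log2 changes were 1.24 (SE 0.15, adjusted p = 9.66e-07) and 0.99 (SE 0.12, adjusted p = 2.44e-06). Control and treated libraries were separate for both effectors. The difference between BAK1 and BAX is that of the estimates and was not tested.

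The anti-apoptotic genes did not move in 1 direction. MCL1, whose protein is short-lived and depends on continued synthesis, rose by 0.21 (SE 0.08, adjusted p = 0.0249) in the DAXX series and by 0.48 (SE 0.08, adjusted p = 3.85e-05) in the ATRX series. The smaller of these calls was lost without WT control replicate 3 (log2 change 0.15) or WT etoposide replicate 1 (0.19) or 3 (0.18). BCL2 fell in the DAXX series from 16, 13 and 10 counts to 3, 5 and 6 counts, a log2 change of −1.26 (SE 0.41, adjusted p = 0.0114), and the call was lost without WT etoposide replicate 1 (−1.03, adjusted p = 0.0543). In the ATRX series BCL2 had 12, 18 and 18 counts in control and 11, 8 and 2 with etoposide, a log2 change of −0.97 that did not pass (SE 0.42, adjusted p = 0.0538). It passed without WT control replicate 1 (−1.18) or WT etoposide replicate 1 (−1.44) and with all libraries in 1 model (−0.99, adjusted p = 0.0245), whereas without WT etoposide replicate 3 it was −0.59 (adjusted p = 0.197). BCL2L1, which encodes BCL-xL, fell by 0.37 (SE 0.09, adjusted p = 0.00152) in the ATRX series. In the DAXX series its log2 change was −0.26 with an adjusted p of 0.05002, just over the threshold. The call was gained in 4 of the 12 fits that left out 1 library. It was also gained with no filter on low counts (−0.28, adjusted p = 0.0431) and with all libraries in 1 model (−0.28, adjusted p = 0.0259). BCL2L1 shares its locus with BCL2L1-AS1, which had 22 counts in all libraries against 10573 for BCL2L1.

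**Figure D2:**
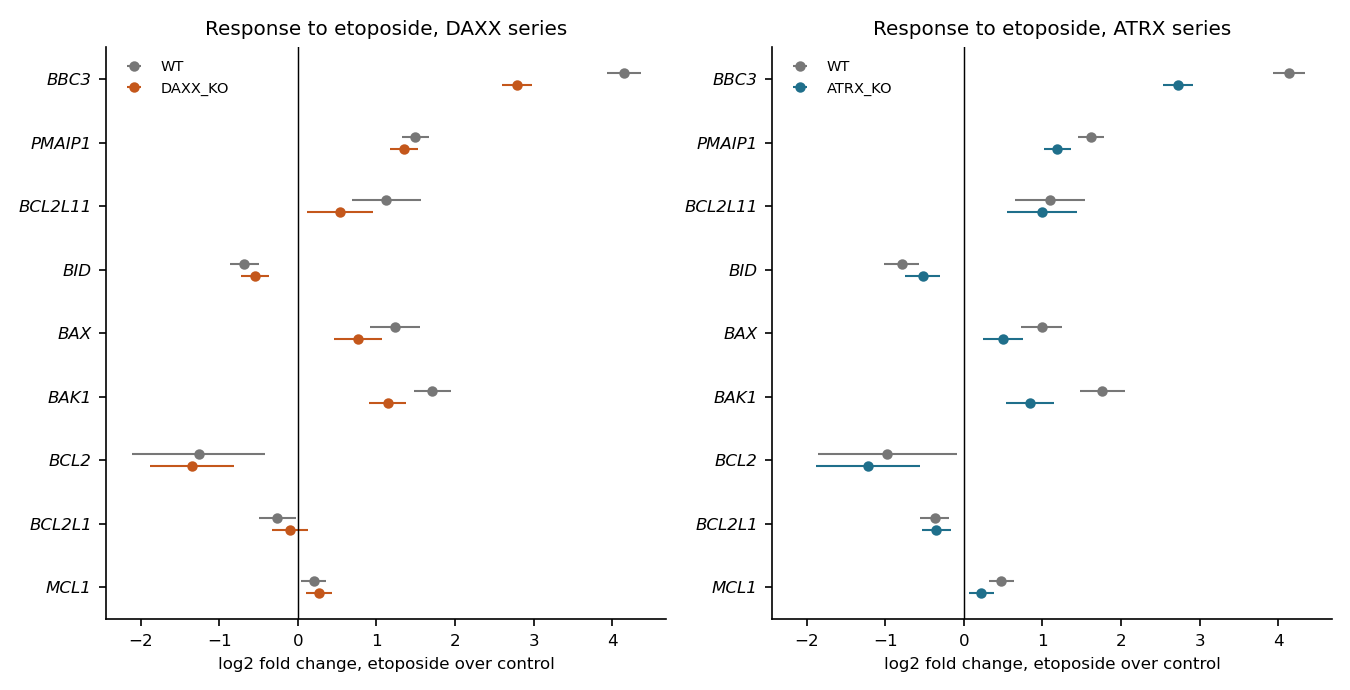
Log2 fold change of 9 members with etoposide in WT and knockout cells of each series, with bars for the 95% confidence interval of the edgeR fit. BBC3 sits at 4.15 and 4.14 in WT and at 2.79 and 2.73 in the knockouts, while BID, BCL2 and BCL2L1 lie below 0 in all 4 comparisons.

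The next question was whether knockout cells respond to etoposide as WT cells do. In DAXX_KO cells, 6 of the 9 members rose with etoposide, against 26.8% of all genes, and 2 fell, against 27.8%. In ATRX_KO cells 6 rose, against 24.3%, and 3 fell, against 25.2%. The median log2 change of the members was 0.53 in DAXX_KO and 0.50 in ATRX_KO, where that of all genes was 0.00 and 0.03. BBC3, PMAIP1, BCL2L11, BAX, BAK1 and MCL1 were the 6 that rose in each knockout, and BID and BCL2 fell in both.

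BBC3 rose from 26.6, 24.01 and 22.9 CPM to 179, 156 and 175 CPM in DAXX_KO, a log2 change of 2.79 (SE 0.09, adjusted p = 5.40e-15) or 6.93-fold. In ATRX_KO it rose from 23.1, 24.01 and 24.9 CPM to 177, 150 and 149 CPM, a log2 change of 2.73 (SE 0.09, adjusted p = 3.63e-13) or 6.62-fold. The knockout control libraries lay above the WT control libraries. Treated DAXX_KO libraries overlapped the treated WT ones, and treated ATRX_KO libraries lay just below those of their series. PMAIP1 rose by 1.35 (SE 0.09) in DAXX_KO, from 46.4, 45.8 and 47.2 CPM to 113, 137 and 105 CPM, and by 1.19 (SE 0.08) in ATRX_KO, from 59.4, 61.8 and 69.7 CPM to 150, 152 and 132 CPM. Treated knockout libraries of PMAIP1 all lay below the treated WT libraries of the same series. BCL2L11 rose by 0.53 (SE 0.20, adjusted p = 0.0311) in DAXX_KO and by 1.00 (SE 0.21, adjusted p = 8.05e-04) in ATRX_KO. The call in DAXX_KO was lost without KO control replicate 3 (0.39), without KO etoposide replicate 2 (0.37), with library totals (0.43) and with no filter on low counts (0.53). BID fell by 0.54 (SE 0.09) and by 0.52 (SE 0.11).

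BAK1 rose from 10.4, 12.1 and 12.5 CPM to 26.9, 24.8 and 25.9 CPM in DAXX_KO, a log2 change of 1.14 (SE 0.11). In ATRX_KO it rose from 8.78, 8.78 and 11.3 CPM to 21.3, 16.1 and 14.6 CPM, a log2 change of 0.84 (SE 0.14). The treated ATRX_KO libraries reached less than 22 CPM, below every treated WT library of either series. BAX rose by 0.76 (SE 0.15) in DAXX_KO and by 0.50 (SE 0.12) in ATRX_KO. The treated knockout libraries of BAX ranged from 21.1 to 30.003 CPM and overlapped the treated WT libraries, which ranged from 16.8 to 26.9 CPM. BCL2 fell by 1.35 (SE 0.26) in DAXX_KO, from 68, 48 and 63 counts to 25, 22 and 31 counts, and by 1.22 (SE 0.31) in ATRX_KO, from 49, 56 and 58 counts to 24, 27 and 23 counts. BCL2L1 fell by 0.35 (SE 0.09) in ATRX_KO, and in DAXX_KO its log2 change of −0.10 did not pass (SE 0.11, adjusted p = 0.463). MCL1 rose by 0.27 (SE 0.08, adjusted p = 0.00596) and by 0.22 (SE 0.08, adjusted p = 0.0219). With library totals the former was 0.16 and did not pass, and the latter call was lost with no filter on low counts (0.19), with only the compared groups (0.24) and without KO control replicate 1 (0.18) or KO etoposide replicate 2 (0.17).

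The difference between the responses was tested as the interaction of knockout and etoposide. In the DAXX series 2 of the 9 members, BBC3 and BAK1, had a called interaction below 0, against 5.79% of all genes. No member had a called interaction above 0, against 8.38% of all genes. The count above 0 was also 0 at an unadjusted p under 0.05 and with DESeq2. In the ATRX series 3 of the 9 members, BBC3, BAK1 and PMAIP1, had a called interaction below 0, against 7.64%. There 0 had one above 0, against 8.36%, with 0 at an unadjusted p under 0.05 or with DESeq2. The named members rose less in the knockout than in WT. The shares of all genes go by the sign of the interaction alone, so a gene that fell less in the knockout counts as above 0. The median interaction of the members was −0.14 for DAXX_KO and −0.25 for ATRX_KO, where that of all genes was 0.02 and −0.01.

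The response of BBC3 was smaller by 1.35 on the log2 scale in DAXX_KO (interaction −1.35, SE 0.14, adjusted p = 3.32e-06) and by 1.41 in ATRX_KO (interaction −1.41, SE 0.13, adjusted p = 4.09e-06). In the DAXX series the control libraries differed and the treated ones overlapped. Both differed in the ATRX series, with a log2 change of 1.195 in control and of −0.22 with etoposide between ATRX_KO and WT. The interaction of BAK1 was −0.57 (SE 0.16, adjusted p = 0.0216) in the DAXX series and −0.92 (SE 0.20, adjusted p = 0.00462) in the ATRX series. For BAK1 the treated libraries differed, with 24.8 to 26.9 CPM in DAXX_KO against 32.6 to 33.4 in WT, and 14.6 to 21.3 CPM in ATRX_KO against 42.2 to 45.2 in WT. The BAK1 call in the DAXX series was lost without WT control replicate 3 (−0.49), KO control replicate 2 (−0.54) or KO control replicate 3 (−0.52), with no filter on low counts (−0.56) and with DESeq2 (−0.55), which left BBC3 as the 1 member called. PMAIP1 had an interaction of −0.43 (SE 0.11, adjusted p = 0.0159) in the ATRX series and of −0.14 (95% interval −0.39 to 0.11, adjusted p = 0.495) in the DAXX series. The former call was lost without WT etoposide replicate 1 (−0.40) or 3 (−0.38).

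The interaction of BAX was −0.48 (95% interval −0.92 to −0.03, adjusted p = 0.152) in the DAXX series and −0.49 (95% interval −0.86 to −0.13, adjusted p = 0.0615) in the ATRX series, and neither passed. The latter passed without KO etoposide replicate 1 (−0.62, adjusted p = 0.0112) and when 10 counts were required in every library (−0.50, adjusted p = 0.0495). BCL2L11 had interactions of −0.60 (95% interval −1.21 to 0.02) and −0.10 (95% interval −0.74 to 0.53), and BCL2 of −0.09 (95% interval −1.37 to 1.197) and −0.25 (95% interval −1.41 to 0.91). These intervals are wide because of the low counts. For BID the intervals were −0.12 to 0.39 and −0.05 to 0.58, for BCL2L1 −0.16 to 0.49 and −0.24 to 0.28, and for MCL1 −0.16 to 0.29 and −0.48 to −0.03. None of these passed in either series, and the adjusted p of MCL1 in the ATRX series was 0.125.

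**Figure D3:**
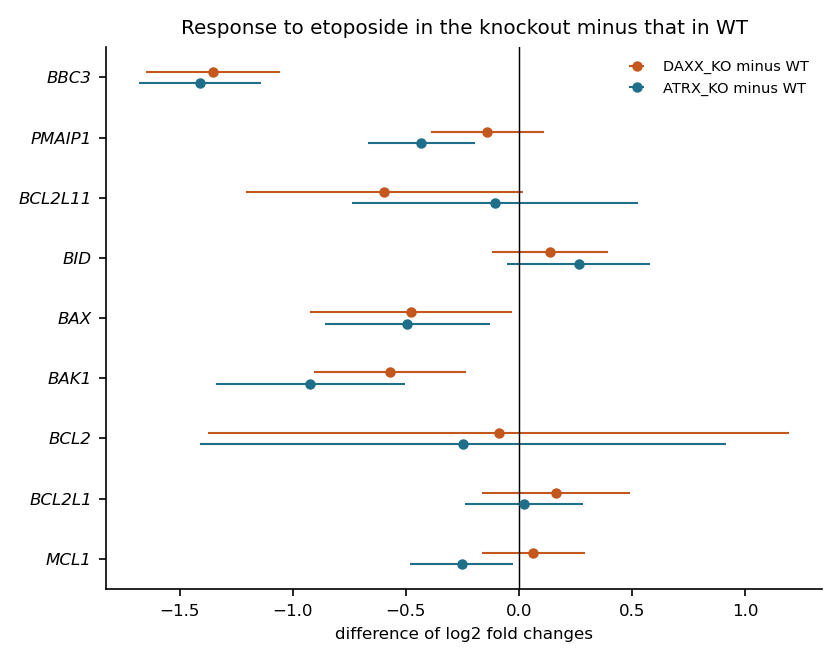
Difference between the log2 response to etoposide in a knockout and in the WT cells of its series, with bars for the 95% confidence interval. BBC3 lies at −1.35 and −1.41 and BAK1 at −0.57 and −0.92, and the intervals of BCL2 are the widest.

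The comparison of knockout and WT cells without treatment asked what the loss of DAXX or ATRX goes with in the absence of etoposide. These cells are not free of DNA damage signals, since the paper reports raised γH2AX at the tested sites in untreated knockout cells. BBC3, BAX and BCL2 were higher in both knockouts, and PMAIP1 was lower in both. In DAXX_KO 4 of the 9 members were higher, against 26.7% of all genes, and 2 were lower, against 26.6%. In ATRX_KO 3 were higher, against 20.8%, and 3 were lower, against 21.0%. The median log2 change of the members was 0.22 in DAXX_KO and 0.05 in ATRX_KO, against 0.02 for all genes in each.

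BBC3 was 2.76-fold higher in DAXX_KO (log2 change 1.47, SE 0.12, adjusted p = 3.65e-09) and 2.29-fold higher in ATRX_KO (1.195, SE 0.10, adjusted p = 6.06e-08). Its 6 knockout control libraries lay between 22.9 and 26.6 CPM. BAX was higher by 0.61 (SE 0.16, adjusted p = 0.00360) in DAXX_KO, with 14.0, 15.3 and 11.1 CPM, and by 0.50 (SE 0.13, adjusted p = 0.00399) in ATRX_KO, with 16.5, 18.7 and 18.4 CPM. No knockout control library of BAX fell within the range of the WT control libraries of its series. BCL2, the anti-apoptotic gene that gave the family its name, had 8.50, 6.33 and 7.58 CPM in DAXX_KO against 1.59, 1.497 and 1.201 CPM in WT, and 4.26, 4.69 and 4.61 CPM in ATRX_KO against 0.933, 1.53 and 1.52 CPM in WT. The log2 changes of BCL2 were 2.37 (SE 0.28, adjusted p = 7.52e-07) and 1.76 (SE 0.33, adjusted p = 3.70e-04), the largest of the 9 members in both knockouts.

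PMAIP1 was lower by 0.77 (SE 0.09, adjusted p = 4.48e-07) in DAXX_KO, where the log2 change was −0.77, and had a log2 change of −0.24 (SE 0.08, adjusted p = 0.0278) in ATRX_KO. The latter was lost with library totals (−0.18), with no filter on low counts (−0.24, adjusted p = 0.0516) and without WT control replicate 1 (−0.22) or 2 (−0.23) or KO control replicate 1 (−0.18) or 2 (−0.22). MCL1 had 151, 160 and 162 CPM in DAXX_KO against 258, 253 and 231 CPM in WT, a log2 change of −0.65 (SE 0.08, adjusted p = 7.14e-07). In ATRX_KO it had 271, 291 and 293 CPM against 295, 274 and 254 CPM, a log2 change of 0.05 (95% interval −0.11 to 0.21, adjusted p = 0.613).

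BAK1 was lower in ATRX_KO (log2 change −0.41, SE 0.15, adjusted p = 0.0343), and in DAXX_KO its log2 change was 0.22 (adjusted p = 0.158). The call in ATRX_KO was lost with library totals (−0.35) and in 5 of the 6 fits that left out a control library (−0.44 to −0.34), namely WT replicates 1, 2 and 3 and KO replicates 1 and 2. BID was lower in ATRX_KO (−0.36, SE 0.10, adjusted p = 0.00909), a call lost without WT control replicate 2 (−0.30, adjusted p = 0.0552), and its log2 change in DAXX_KO was 0.03 (95% interval −0.14 to 0.21). BCL2L11 was higher in DAXX_KO by 0.57 (SE 0.22, adjusted p = 0.0353), a call lost with DESeq2 (0.54), with no filter on low counts (0.55), with only the compared groups (0.57, adjusted p = 0.0542) and without WT control replicate 2 (0.42) or 3 (0.61) or KO control replicate 1 (0.49) or 2 (0.50). In ATRX_KO its log2 change was −0.06 (95% interval −0.53 to 0.42). BCL2L1 had log2 changes of 0.15 (adjusted p = 0.252) and 0.16 (adjusted p = 0.145). With library totals BAK1 (0.40), BID (0.22) and BCL2L1 (0.34) passed in DAXX_KO, where all genes moved up by 0.18, and BCL2L1 (0.22) passed in ATRX_KO. BCL2L1 also passed in DAXX_KO without WT control replicate 1 (0.29).

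With etoposide, the differences in BBC3 and BAX between knockout and WT cells were small and those in BCL2, PMAIP1 and MCL1 remained called in DAXX_KO. In DAXX_KO 2 of the 9 members were higher, against 27.9% of all genes, and 3 were lower, against 25.2%. In ATRX_KO 1 was higher, against 23.0%, and 4 were lower, against 22.9%. The median log2 change of the members was 0.11 in DAXX_KO and −0.16 in ATRX_KO, against 0.01 for all genes in each.

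PMAIP1 had log2 changes of −0.91 (SE 0.08, adjusted p = 1.50e-08) in DAXX_KO and −0.67 (SE 0.08, adjusted p = 2.64e-06) in ATRX_KO. BAK1 was lower by 0.35 in DAXX_KO (−0.35, SE 0.10, adjusted p = 0.00594) and by 1.33 in ATRX_KO (−1.33, SE 0.13, adjusted p = 3.70e-07), where it reached 0.397 of the WT level. BCL2 was higher in DAXX_KO (2.28, SE 0.37) and in ATRX_KO (1.52, SE 0.40, adjusted p = 0.00490), although etoposide had lowered it in both knockouts. In these libraries BCL2 had 22 to 31 counts in DAXX_KO against 3 to 6 in WT, and 23 to 27 in ATRX_KO against 2 to 11 in WT. MCL1 had log2 changes of −0.59 (SE 0.08, adjusted p = 2.52e-06) in DAXX_KO and −0.20 (SE 0.08, adjusted p = 0.0401) in ATRX_KO. BCL2L1 was higher in DAXX_KO (0.32, SE 0.11, adjusted p = 0.0226), and in ATRX_KO its log2 change was 0.18 (adjusted p = 0.0999). The call in DAXX_KO was lost with DESeq2 (0.29, adjusted p = 0.0512) and without WT etoposide replicate 1 (0.30) or 2 (0.29) or KO etoposide replicate 3 (0.26).

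BBC3 had a log2 change of 0.11 (95% interval −0.05 to 0.28, adjusted p = 0.228) in DAXX_KO and of −0.22 (95% interval −0.38 to −0.05, adjusted p = 0.0331) in ATRX_KO. The BBC3 and MCL1 calls in ATRX_KO depended on single libraries and on scaling. Both were lost with library totals (−0.12 and −0.10), with no filter on low counts (−0.21 and −0.20), and without WT etoposide replicate 1 (−0.21 and −0.18), 2 (−0.16 and −0.13) or 3 (−0.19 and −0.20) or KO etoposide replicate 3 (−0.17 and −0.18). Without KO etoposide replicate 2 the BBC3 call alone was lost (−0.17), and without KO etoposide replicate 1 (−0.16) or WT control replicate 2 (−0.20) that of MCL1. BBC3 was also lost with only the compared groups (−0.21, adjusted p = 0.0504) and MCL1 with all libraries in 1 model (−0.17, adjusted p = 0.0638). The log2 changes of BAX (0.13 and 0.01), BID (0.17 and −0.10) and BCL2L11 (−0.02 and −0.16) did not pass in either knockout. With library totals, BBC3 (0.19) and BID (0.25) passed in DAXX_KO and BCL2L1 (0.28) in ATRX_KO.

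**Figure D4:**
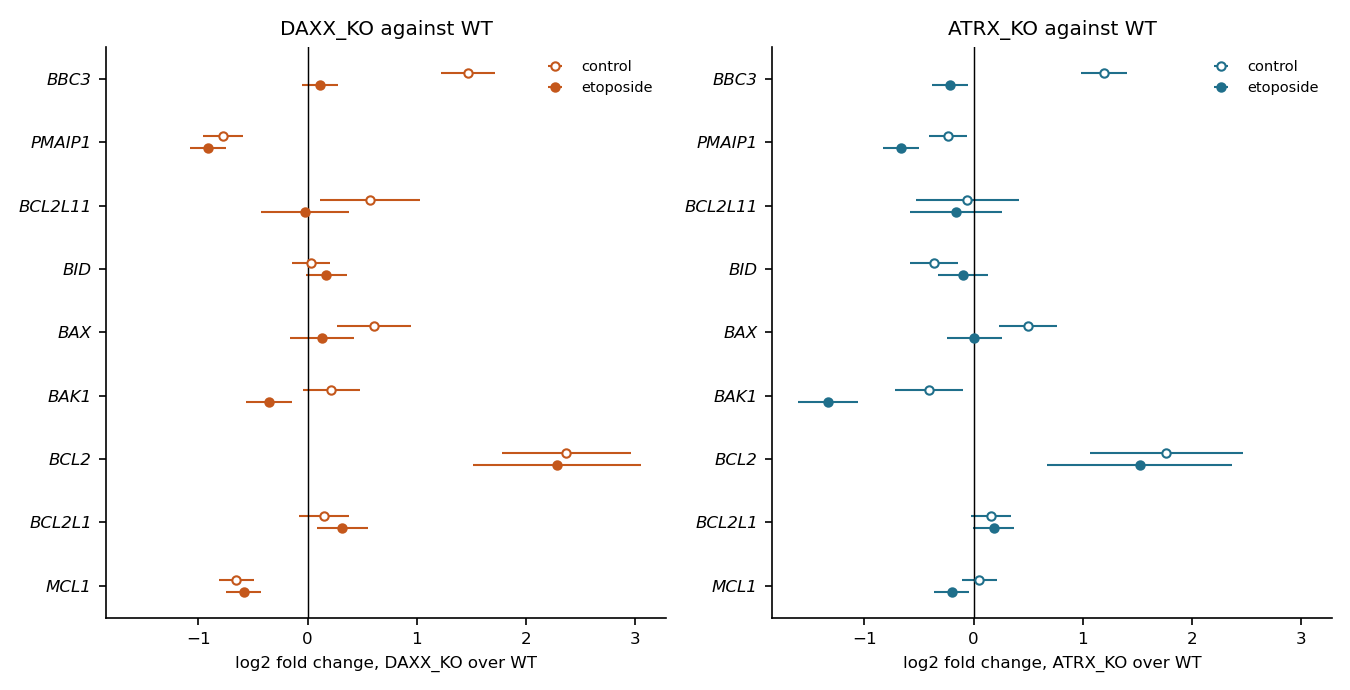
Log2 fold change of 9 members in DAXX_KO (left) and ATRX_KO (right) over the WT cells of the same series, in control (open) and with etoposide (filled), with bars for the 95% confidence interval. BBC3 moves from 1.47 and 1.195 in control to 0.11 and −0.22 with etoposide, while BCL2 lies at 1.52 or above in all 4 comparisons.

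The DAXX_KO and ATRX_KO effects in control were compared in 1 model of all 24 libraries and 16674 genes. Of the 9 members, 2 had a higher knockout effect in DAXX_KO than in ATRX_KO, against 17.0% of all genes, and 2 had a lower one, against 17.2%. The higher ones were BAK1 (difference 0.63, SE 0.19, adjusted p = 0.0120) and BID (0.40, SE 0.13, adjusted p = 0.0184). The lower ones were MCL1 (−0.70, SE 0.11, adjusted p = 1.24e-05) and PMAIP1 (−0.53, SE 0.12, adjusted p = 0.00106). The BID call was lost with no filter on low counts (0.36) and without DAXX series WT control replicate 3 (0.35), DAXX_KO control replicate 2 (0.34), ATRX series WT control replicate 2 (0.32) or ATRX_KO control replicate 1 (0.36). BBC3 had a difference of 0.28 (95% interval −0.04 to 0.59, adjusted p = 0.180), which passed with library totals (0.40, adjusted p = 0.0439), and BCL2 one of 0.61 (95% interval −0.27 to 1.49, adjusted p = 0.296). That of BCL2L11 was 0.63 (95% interval −0.01 to 1.28, adjusted p = 0.127) and passed without ATRX_KO control replicate 3 (0.96). For BAX the interval was −0.31 to 0.53 and for BCL2L1 −0.29 to 0.28. The interactions of the series with etoposide were compared in the same model. No member differed, with 0 of 9 higher, against 1.92% of all genes, and 0 lower, against 1.08%, and the smallest adjusted p was 0.337. The count was also 0 at an unadjusted p under 0.05 and with DESeq2. For BBC3 the difference between the interactions was 0.03 (95% interval −0.36 to 0.43), for BAK1 0.33 (95% interval −0.18 to 0.85) and for PMAIP1 0.27 (95% interval −0.07 to 0.61).

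The 9 tested members lie on 7 chromosomes, with BBC3 and BAX both on chromosome 19 and PMAIP1 and BCL2 both on chromosome 18. On GRCh37, BAK1 (chr6:33540324-33548070) lies 249.5 kb from DAXX (chr6:33286335-33290793). For each knockout comparison the median log2 change of the 30 tested genes on each side was set beside the member, as a description. Fewer than 30 tested genes precede BID on chromosome 22, so it had 45 or 46 neighbours in place of 60. In DAXX_KO control cells the neighbours of BAX moved with it, with a median of 0.40 against 0.61 for BAX, and 30 of the 60 neighbours were called higher and 7 lower. The neighbours of MCL1 had a median of −0.28 against −0.65 for MCL1, with 26 lower and 10 higher. The neighbours of BCL2L1 had a median of 0.36, above the 0.15 of BCL2L1, with 32 higher and 5 lower. Those of BAK1, the region that holds DAXX, had a median of 0.22 against 0.22 for BAK1. In ATRX_KO control cells the neighbours of BID had a median of −0.51 against −0.36 for BID, with 20 lower and 2 higher, and with etoposide it was −0.62. The neighbours of BBC3, PMAIP1 and BCL2 had medians from −0.05 to 0.13 in the control comparisons of both knockouts, where these members moved by 0.24 or more. For the interactions, the neighbour medians lay between −0.11 and 0.14 for all 9 members. The part of regional change or copy number in the values of BAX, BCL2L1, MCL1 and BID was not tested.

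The genes with the pattern most like each member were found by the Pearson correlation of log2 CPM over the 24 libraries among the 15039 genes tested in both series, as a description, since all genes share the libraries and their 8 groups. For BBC3 they were GDF15 (r = 0.994), ACTA2 (0.992) and CREBRF (0.987). For BAK1 the closest named gene was BRMS1 (0.969). Those of PMAIP1 were DYRK3 (0.984), GAS5 (0.984) and RPL12 (0.982), and those of BCL2L11 were CCNG1 (0.919), SESN1 (0.911) and ZNF425 (0.909). BAX was followed by FAM88B (0.931), FYCO1 (0.927) and IFI16 (0.927). The log2 changes of BID, BCL2 and BCL2L1 with etoposide were negative, though not all of them were called. Their closest genes were SPECC1L (0.970), KDELR2 (0.943) and HDGFL2 (0.920) in that order, and for MCL1 it was PSMC3IP (0.955).

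Other genes of the pathway were taken from lists. Their counts stand beside the shares of all genes called, which for etoposide in WT cells were 29.6% higher and 30.6% lower in the DAXX series and 31.7% and 29.8% in the ATRX series. Of 15 further BCL2 family genes, 12 passed the filter in the DAXX libraries and 13 in the ATRX libraries. In WT cells etoposide raised 4 and lowered 3 in each series, with a median log2 change of 0.16 and 0.15, counts near those shares. BH3-only HRK and BMF were among those raised. BMF had a mean of 2.54 CPM in control and 6.02 with etoposide in WT cells of the DAXX series (log2 change 1.25) and 1.81 and 7.18 CPM in the ATRX series (1.98). HRK rose from 8 to 31 counts over the 3 libraries of a group in the DAXX series (2.09) and from 15 to 71 counts in the ATRX series (2.45), and it rose in DAXX_KO (2.45) and ATRX_KO (2.74) too. In control cells 2 of these genes were higher and 6 lower in DAXX_KO, against 26.7% and 26.6% of all genes, where BMF (−1.65) and BNIP3 (−0.76) were lower and BAD (0.80) higher. In ATRX_KO 1 was higher and 1 lower, against 20.8% and 21.0%. The higher one was the anti-apoptotic gene BCL2A1, with 219 counts in the 3 ATRX_KO control libraries and 3 in the 3 WT control libraries, or 6.02 and 0.0825 CPM on average.

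All 21 genes of caspase activation downstream of mitochondria were tested. In WT cells etoposide raised 6 and lowered 9 of them in the DAXX series and raised 5 and lowered 11 in the ATRX series, with a median of −0.18 and −0.58, against 29.6% and 30.6% and against 31.7% and 29.8% of all genes. BIRC5 (survivin) fell by 1.51 and by 1.30 on the log2 scale, CASP2 by 1.38 and by 1.47, and BIRC2 (cIAP1) by 1.33 and by 1.49. In control cells 5 were higher and 11 lower in DAXX_KO and 2 higher and 7 lower in ATRX_KO, where the shares of all genes were 26.7% and 26.6% and 20.8% and 21.0%, with BIRC2 at −1.07 and −1.47. The called interaction was above 0 for 3 genes in DAXX_KO, ENDOG (0.90), BIRC2 (0.87) and BIRC5 (0.35). In ATRX_KO it was above 0 for 3 and below 0 for 1, among them CASP9 (1.01) and BIRC2 (0.96). For BIRC2 and BIRC5 this was a weaker fall. Mean BIRC2 went from 95.1 to 68.9 CPM in DAXX_KO and from 199 to 79.0 CPM in its WT. In the ATRX series it went from 85.4 to 59.4 CPM in ATRX_KO and from 236 to 84.1 CPM in WT. Mean BIRC5 went from 358 to 160 CPM in DAXX_KO and from 621 to 218 CPM in its WT. Of all genes, 8.38% had a called interaction above 0 in DAXX_KO. In ATRX_KO 8.36% had one above 0 and 7.64% one below 0.

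Of 13 transcription factors known to act on BCL2 family genes, 12 were tested. In WT cells etoposide raised 6 and lowered 3 in the DAXX series and raised 5 and lowered 4 in the ATRX series, with a median of 0.62 and 0.50, against 29.6% and 30.6% and against 31.7% and 29.8% of all genes. DDIT3 (CHOP), a factor of the stress response that activates BBC3 and BCL2L11, had log2 changes of 4.78 and 4.91, and MYC had −2.58 and −2.25. The called interaction was below 0 for 4 factors in each series, against 5.79% and 7.64% of all genes. It was above 0 for 2 in DAXX_KO and 1 in ATRX_KO, against 8.38% and 8.36%. In ATRX_KO it was −1.33 for DDIT3 and −0.79 for ATF4. TP73 went from 1 to 75 counts over 3 WT libraries of the DAXX series with etoposide and from 3 to 175 in the ATRX series, and had 44 counts in DAXX_KO control and 24 in DAXX_KO etoposide. In ATRX_KO it had 1 count in control and 18 with etoposide. Of 9 genes of BCL2 family protein turnover, 8 were tested. In WT cells etoposide raised 3 and lowered 2 in each series, with a median of −0.02 and 0.00, counts near the shares of all genes. FBXW7, which targets MCL1 for degradation, had log2 changes of 1.77 and 2.38, and USP9X, which removes ubiquitin from MCL1, of −0.78 and −0.91. In control cells USP9X was higher in DAXX_KO (0.93) and in ATRX_KO (0.37).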

How the data were processed

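RNA was extracted from U87-T cells with Trizol, and libraries were made with the QuantSeq 3′ mRNA kit and read as single ends of 75 bases. The authors aligned reads to hg19 with STAR, and estimated gene counts with RSEM on an Ensembl annotation of GRCh37. The labels name version 1.2.3 of RSEM, and the methods another. The deposited values are counts, whole numbers with no normalization. Groups were taken from sample titles. A genotype tag names ATRX for the DAXX_KO samples, and the titles were followed. Gene symbols and positions came from GENCODE on GRCh37 and matched 55501 of 57736 gene IDs, which hold 98.8% of the counts.

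Counts were fitted in edgeR 4.0.16 (R 4.3.3) with filterByExpr, TMM scaling and the quasi-likelihood test, 12 libraries and 4 groups per series, with Benjamini-Hochberg adjustment over all genes tested and an FDR of 5%. The DAXX and ATRX series were compared in a model of 24 libraries and 8 groups. SEs and 95% intervals come from the same fits, and an interaction is the log2 response in a knockout minus that in WT. The common spread between replicates, as edgeR's BCV, was 0.0825 (DAXX) and 0.106 (ATRX). The model was tested on simulated data. Alternatives were DESeq2 1.42.0, RLE factors, library totals, other filters, other sets of libraries in the fit, a replicate block and leaving out each library. No molecular identifiers are named in the sources used here, so the floor of 3 counts reflects counting error alone.

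Nothing in the labels says whether replicates are separate cultures, so p-values measure the spread between these libraries. The paper's reporting summary calls the replicates of its experiments biological, without saying how those of these libraries were made. No pair agreed within counting error (chi-square per degree of freedom 2.16 to 17.1 over 24 pairs). Libraries that share a replicate number did not deviate together (correlations −0.22 to 0.05 over 36 pairs), so they were not treated as pairs. All 10 members are named. Of each list of other genes, at most 4 called genes with the largest change per comparison are named, and for each member up to 3 genes of highest correlation. The levels of TP73 in all groups are given beside values named by this rule. Some genes of the lists are not reported here by name. The members and lists were chosen with earlier results of these data known. Sequences came from GRCh37 and the RefSeq promoter table of GRCh38.p14. Python 3.11.15 and matplotlib 3.10.9 drew the figures.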

Additional observations from a re-analysis of the deposited data

Results flagged for a closer look

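The members below had an effect that differed between groups of cells by the edgeR quasi-likelihood test of the difference itself. With 9 members tested in 4 such comparisons, the share of all genes that passed is given beside each count above. The response to etoposide was lower in DAXX_KO than in WT for BBC3 (difference of log2 changes −1.35) and BAK1 (−0.57). It was lower in ATRX_KO than in WT for BBC3 (−1.41), BAK1 (−0.92) and PMAIP1 (−0.43). For BBC3 the knockout control libraries lay above the WT ones in both series, and the treated libraries overlapped in the DAXX series and were lower in ATRX_KO in the ATRX series, and for BAK1 the treated knockout libraries lay below the treated WT ones. The difference between knockout and WT cells in control was higher in the DAXX series than in the ATRX series for BAK1 (0.63) and BID (0.40), and lower for MCL1 (−0.70) and PMAIP1 (−0.53). No outlier test was run on the groups of 3 libraries, and the fits that left out each library in turn are described below.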

How the results depend on the processing

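Counts limit BCL2 and BCL2L11 most, and BIK could not be tested at this depth. With 12 libraries a fit, small differences of MCL1, BCL2L1, BID and BAK1 lay near the threshold, and single libraries moved them across it. The BBC3 increase with etoposide, its smaller response in both knockouts and the higher BCL2 in both knockouts kept their direction and call under every alternative run in which the gene was tested. BCL2 was not tested where 10 counts were required in every library.

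Of 102 values recomputed by each setting, 101 kept direction and side of the threshold with RLE factors, 98 with DESeq2, 93 with no filter on low counts and 82 with library totals. With 10 counts in every library 89 of 91 did, with all libraries in one model 87 of 90, with only the compared groups 68 of 71, and with each library left out 1286 of 1368. Replicate numbers did not pair the libraries. The replicate block changed no call, with 101 of 102 values on the same side and 1 reversed, the DAXX_KO minus ATRX_KO effect on BCL2L1, at 0.00061.

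The members called for the DAXX_KO interaction fell from 2 to 1 with no filter and with DESeq2, and ranged from 1 to 2 with a library left out. Those called for ATRX_KO against WT ranged from 3 to 6 in control with a library left out, where 6 were called. With etoposide 5 were called, 3 with no filter, and from 3 to 5 with a library left out.

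Values near 0 changed sign, none of them called. For BID in DAXX_KO control it was −0.00565 with RLE factors and −0.00575 with DESeq2. With library totals it was 0.051 for BCL2L11 in DAXX_KO with etoposide, −0.046 for the MCL1 interaction in the DAXX series, 0.0021 for BCL2L11 in ATRX_KO control, 0.00072 for BID in ATRX_KO with etoposide, 0.12 for the DAXX_KO minus ATRX_KO effect on BCL2L1 and −0.091 for the difference of BBC3 interactions. With 10 counts in every library that effect on BCL2L1 was 0.014. With a library left out, the ranges were −0.022 to 0.084 for BID, DAXX_KO control, −0.0056 to 0.25 for BAX and −0.19 to 0.059 for BCL2L11, DAXX_KO with etoposide, and −0.32 to 0.18 for BCL2 and −0.021 to 0.15 for MCL1, DAXX interaction. In the ATRX series they were −0.39 to 0.12 for BCL2L11 and −0.0049 to 0.12 for MCL1 in control, −0.13 to 0.096 for BAX and −0.18 to 0.013 for BID with etoposide, and −0.27 to 0.23 for BCL2L11, −0.63 to 0.23 for BCL2 and −0.073 to 0.077 for BCL2L1 for the interaction. Between the series they were −0.12 to 0.12 for the effect on BCL2L1 and −0.055 to 0.15 for the BBC3 interaction. The cause of these changes was not tested.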
